A study of Fundulus heteroclitus with 53 samples.

Results

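Livers of Atlantic killifish (*Fundulus heteroclitus*) from a toxicant-resistant and a toxicant-sensitive population were compared under normal oxygen, with no hypoxia exposure. The comparison takes the 10 RNA-seq libraries whose treatment label is Control, 5 from New Bedford Harbor (NBH) and 5 from Scorton Creek (SC), out of 30 RNA-seq livers in a series of 53 samples. Of the 34089 genes in the count tables, 13609 passed the filter on low counts and were tested, and these held 99.9% of the counts. The other 20 livers, 5 per population under mild and 5 under severe hypoxia for 6 hours, serve to estimate the spread between fish, to see whether a difference was present in other fish and to test whether it changed with oxygen.

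The sediments of New Bedford Harbor carry industrial polychlorinated biphenyls (PCBs), and killifish that breed there tolerate doses that harm fish from cleaner estuaries such as Scorton Creek. Dioxin-like PCBs bind the aryl hydrocarbon receptor (AHR), which pairs with ARNT in the nucleus and switches on *cyp1a* and other genes of xenobiotic metabolism, and resistance lies in a weak response of this pathway. ARNT is also the partner of the hypoxia-inducible factors (HIF), so the pathways for toxicants and for low oxygen share a protein. The liver is the main site of xenobiotic metabolism, and it also makes the clotting factors and lipid carriers of plasma, degrades amino acids, synthesizes lipids and excretes bile.

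All fish were juveniles about 6 months old, bred and raised in the laboratory from wild-caught parents of their own population. NBH control and SC control fish were kept in normoxic seawater on the benchtop, while the hypoxia fish were held in chambers at 10% oxygen (mild) or 5% oxygen (severe). Each library is the liver of 1 fish. Eggs and milt came from a few parents per population, so the fish of a population, in control and hypoxia groups alike, may be siblings. Every p-value here rests on the spread between such fish, and how much families within a population vary was not measured. The sex of the fish is not given in the sources used here. In bulk liver, fewer cells of a type and less RNA per cell cannot be told apart.

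Levels are given as CPM, the count of a gene scaled to the library total with TMM factors, which correct for differences in library composition. Total counts were 7220318 to 16469578 in NBH control fish (median 8179471) and 6591150 to 13247842 in SC control fish (median 12755707). Mitochondrial transcripts took 4.64 to 5.85% of the counts in NBH and 5.30 to 6.74% in SC. Markers of liver were abundant in every fish, as 48 genes of liver plasma proteins summed to 287804 to 389702 CPM in NBH and 232483 to 330169 in SC. A summed level of 21 genes listed as hepatocyte enzymes was 51906 to 64536 CPM in NBH and 33007 to 51102 in SC, with no overlap between the groups. The liver fatty acid-binding protein *fabp10a*, which is not an enzyme, took the largest share of this sum. It was at 23662 to 42844 CPM in NBH and 16089 to 35255 in SC, and without it the sums of the groups overlapped. Of the 20 tested genes of this list none was higher in every NBH fish and 1 was higher in every SC fish. *cps1*, also in the list, was at 0 in all 10 fish. The summed levels of biliary and stellate, red blood cell, leukocyte, exocrine pancreas, skeletal muscle, and intestine and kidney markers overlapped between the populations, and no tested marker of these 6 lists was called. The 9 tested red blood cell markers had a median log2 difference (NBH minus SC) of -0.63. Of these, 7 were below 0 and 2 above, and the lowest edgeR adjusted p was 0.0527. Medians of the other lists ran from -0.30 to 0.20. Overlapping sums do not show that cell composition was alike, and its part in the differences below was not tested. Egg yolk and oestrogen-responsive genes also overlapped, at 37.7 to 141 CPM in NBH and 47.2 to 323 in SC, with SC replicates 3 and 5 above every NBH fish at 209 and 323. Of these, the yolk precursor *vtg3* was at 17.1 and 66.2 CPM in those 2 fish and at most 0.579 in the other 8 (not called, edgeR adjusted p = 0.101), and its part in the differences below was not tested. Among the hypoxia fish NBH severe replicate 5 stood apart, with 4955114 counts and 12823 genes detected, and the main results under severe hypoxia are also given without it.

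The populations stood apart on the first axis of variation among the 10 livers. In a principal coordinate analysis of all tested genes, coordinate 1 held 25.1% of the variation, and the NBH fish lay between -44.8 and -30.8 on it and the SC fish between 28.9 and 44.6. The mean distance between an NBH and an SC liver was 119 (range 111 to 125), against 104 between 2 NBH livers (97.7 to 108) and 101 between 2 SC livers (92.8 to 108). Even the nearest pair across populations was therefore farther apart than the most distant pair within one.

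**Figure D1:**
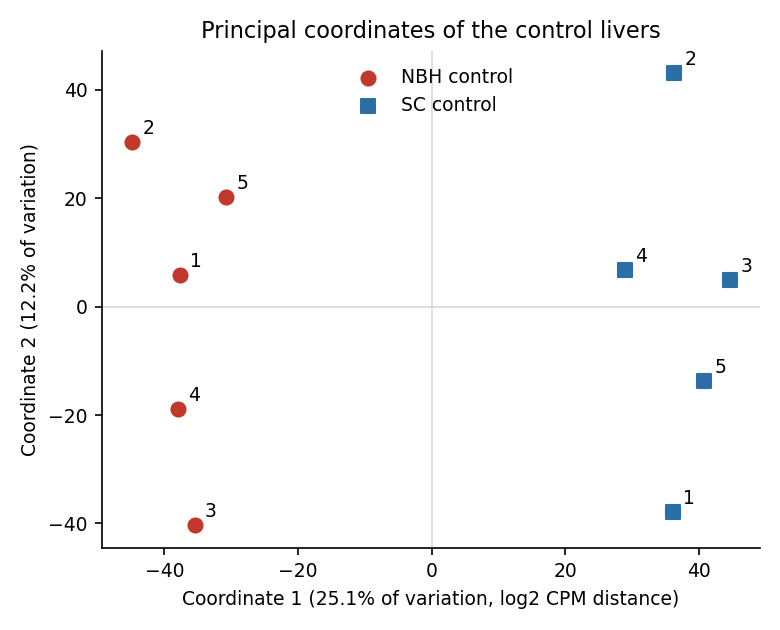
Principal coordinates of the 10 control livers, from distances between log2 CPM profiles over 13609 genes, with each point 1 fish labelled by its replicate number. Coordinate 1 (25.1% of the variation) runs from -44.8 to -30.8 in NBH fish (red circles) and from 28.9 to 44.6 in SC fish (blue squares), and coordinate 2 (12.2%) does not separate the populations.

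Between the control groups 221 genes passed edgeR's quasi-likelihood test (p adjusted after Benjamini and Hochberg, threshold 0.05), which is 1.62% of those tested, with 120 higher in NBH (0.882%) and 101 higher in SC (0.742%). The estimated difference exceeded 1 on the log2 scale in 179 of the 221 (median size 1.65), while 23 genes passed a test against a difference of 1, and the median log2 difference of all tested genes was 0.00 (NBH minus SC, here and below). In 171 of the called genes every fish of one population was above every fish of the other, 95 with NBH above and 76 with SC above. Over all tested genes such non-overlap was found in 606 (4.45%), with NBH above in 2.29% and SC above in 2.17%. Of the called genes 215 are protein coding, 5 are long non-coding RNAs and 1 is a small nucleolar RNA, and 79 have only a LOC identifier. The total count of calls fell to 141, 120 and 135 without NBH control replicates 1, 2 and 4 and to 137 and 108 without SC control replicates 1 and 3. All 10 fits that left out 1 control fish gave fewer calls than the full set (108 to 220). Each such fit has 1 fish fewer in a group. The effect of a smaller group and the weight of a given fish therefore cannot be told apart, here or for single genes below. In all 10 of these fits 79 genes (48 higher in NBH and 31 in SC) were called. Without TMM scaling the median of all genes shifted by -0.15, and 93 genes were called higher in NBH against 266 in SC. DESeq2 called 440 genes, and counts thinned to the smallest library gave 132.

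**Figure D2:**
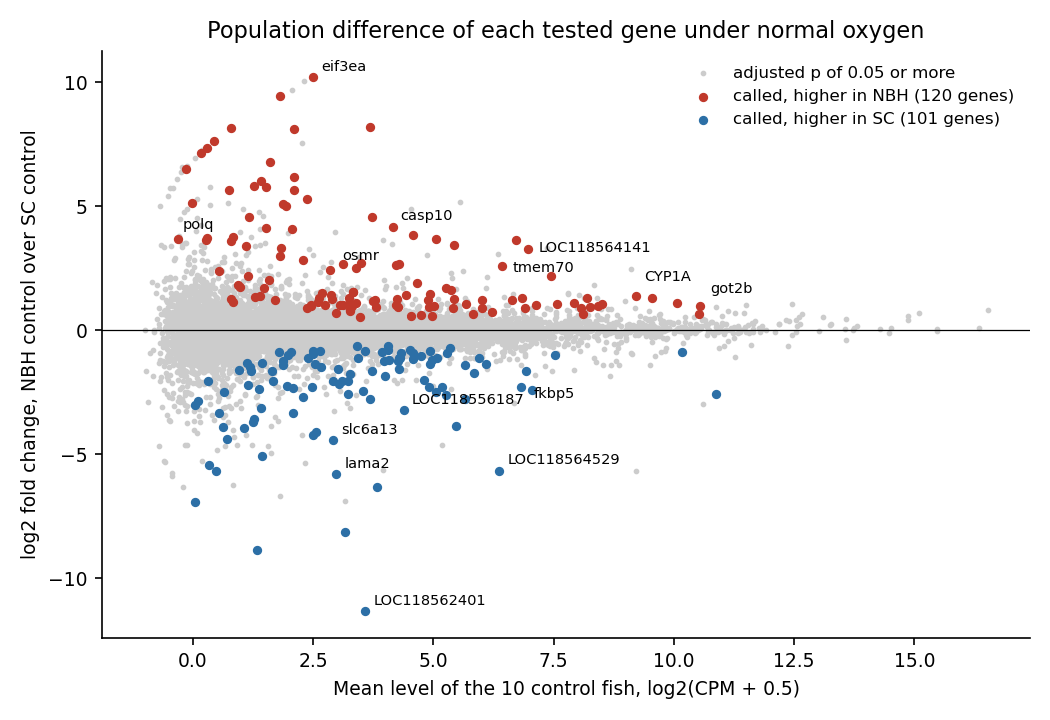
Difference between populations (log2 fold change, NBH control over SC control) against the mean level of the 10 control fish (log2 of CPM plus 0.5) for each of the 13609 tested genes. The 120 genes called higher in NBH are red, the 101 called higher in SC are blue and the rest are grey, and for the genes with the most extreme values, such as *eif3ea* and LOC118562401, 1 population is at 0 and the plotted fold change depends on the fit's prior count.

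Of 9 tested genes of the AHR pathway, 1 was called, where 1.62% of all tested genes were. It was *CYP1A* (LOC105930482, chromosome 4, 35460977 to 35464517), the monooxygenase whose induction is the standard sign of AHR activation. In NBH control fish 1 to 5 *CYP1A* stood at 721, 1013, 1329, 1552 and 726 CPM. In SC control fish it stood at 429, 340.1, 360.3, 550.1 and 490.5 CPM. Every NBH fish was thus above every SC fish, and the spread was wider in NBH (1069 ± 369 CPM, SD, n = 5) than in SC (434 ± 88.0 CPM, SD, n = 5). The log2 difference was 1.30 (SE 0.29, adjusted p = 0.0183 by edgeR's quasi-likelihood test). The call was lost without NBH control replicate 4 (edgeR adjusted p = 0.0605), SC control replicate 2 (0.0521) or SC control replicate 3 (0.0588), with log2 differences of 1.12 to 1.24 in these fits. None of 4 other tested cytochrome P450 genes listed by name (*CYP2N2*, *CYP2P3*, *CYP2P1* and *CYP3A30*) was called, and their log2 differences were 0.12 to 0.50.

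The receptors and their partner did not differ beyond the spread between fish. The gene with the synonym *AHR2* (LOC105937229, chromosome 7), the main AHR of killifish, stood at 6.76, 10.7, 9.19, 6.41 and 2.34 CPM in NBH and at 8.01, 4.92, 6.51, 6.29 and 7.34 in SC. A second gene listed as *ahr2*, on chromosome 24, stood at 13.8 to 19.7 CPM in NBH and 13.2 to 16.7 in SC. *AHR1* (LOC105937232, chromosome 7) and the repressor *ahrr* were at 0 in 9 and 8 of the 10 livers and were below the filter.

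*arnt*, the partner of AHR and of the HIF alpha subunits, was at 1.98, 2.72, 1.78, 2.56 and 1.56 CPM in NBH and at 1.73, 1.64, 2.68, 2.41 and 1.84 in SC, a log2 difference of 0.01 (SE 0.41, edgeR adjusted p = 0.994). The paralog *arnt2* was at 0.725 to 1.56 CPM in NBH and 0.459 to 1.16 in SC, a difference of 0.42 (SE 0.47, edgeR adjusted p = 0.778). These standard errors leave room for differences of either sign in *arnt* and *arnt2*. The cytosolic partners of AHR, *hsp90ab1* and the p23 genes *ptges3a* and *ptges3b*, differed by -0.11, -0.20 and -0.27 and were not called.

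*nqo1*, a quinone reductase and another AHR target in mammals, was at 0.445 to 1.63 CPM in NBH and 0.165 to 0.765 in SC, a difference of 1.57 that missed the threshold (SE 0.54, edgeR adjusted p = 0.144). *ephx1*, the microsomal epoxide hydrolase, belongs to none of these lists and was chosen after its values were seen. *ephx1* stood at 8.16, 16.1, 6.38, 2.40 and 5.39 CPM in NBH and at 1.40, 0.386, 1.34, 0.947 and 1.22 in SC. Its groups did not overlap and its log2 difference was 2.84 (SE 0.71, edgeR adjusted p = 0.0346), but the call held in only 2 of the 10 fits without 1 fish and reached an adjusted p of 0.107 without NBH control replicate 2. Of 16 conjugating enzymes tested, 1 was called, where 1.62% of all tested genes were. It was *ugt2b3*, a glucuronosyltransferase, which was lower in NBH (86.8 to 165 CPM) than in SC (204 to 271 CPM). Its difference was -1.02 (SE 0.24, edgeR adjusted p = 0.0231), and the call held in 5 of 10 such fits, with its highest adjusted p (0.0800) without NBH control replicate 2.

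**Figure D3:**
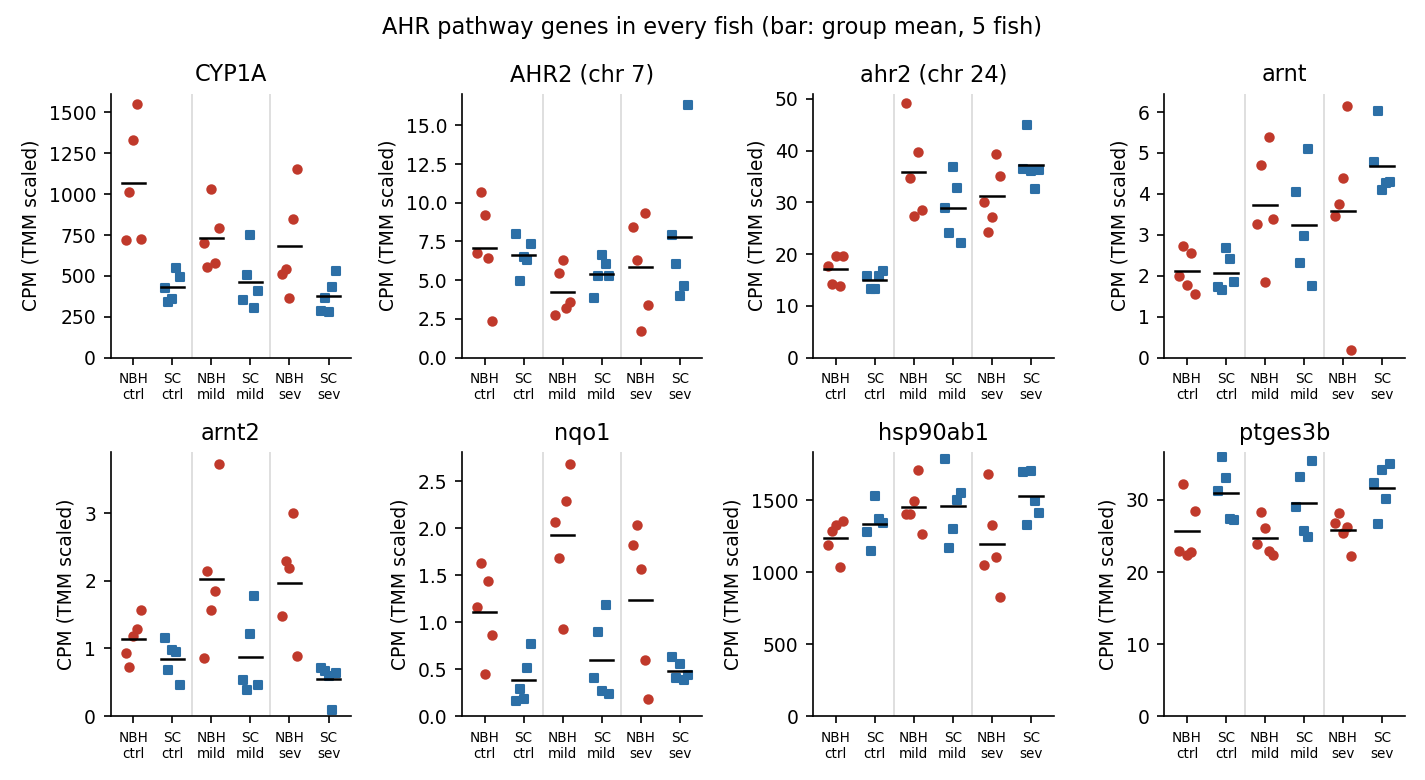
Levels (CPM, linear axes from 0) of 8 genes of the AHR pathway in each of the 30 fish, NBH as red circles and SC as blue squares, with a bar at the mean of the 5 fish of each group (ctrl, control; sev, severe hypoxia). In the control columns *CYP1A* is at 721 to 1552 CPM in NBH and 340.1 to 550.1 in SC, and the groups of the other 7 genes overlap.

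In the hypoxia fish the *CYP1A* difference had the same direction and was not called, at 0.66 under mild hypoxia (SE 0.29, edgeR adjusted p = 0.273) and 0.86 under severe hypoxia (SE 0.29, edgeR adjusted p = 0.0664), or 0.58 without NBH severe replicate 5 (edgeR adjusted p = 0.222). Its size at either level was not found to differ from that in control (edgeR interaction tests, adjusted p = 0.747 and 0.743).

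Some enzymes, picked singly after their values were seen and not as a tested group, were higher in NBH. *aldh4a1*, the mitochondrial enzyme that completes proline breakdown to glutamate, was at 928, 805, 795, 627 and 1128 CPM in NBH and at 408, 432, 241, 411 and 167 in SC, a log2 difference of 1.37 (SE 0.30, edgeR adjusted p = 0.0135). This call was lost in 1 of the 10 edgeR fits, without SC control replicate 3 (edgeR adjusted p = 0.0548). *got2b*, the mitochondrial aspartate aminotransferase, was at 1826 to 2215 CPM in NBH and 644 to 1331 in SC, with no overlap. Its difference was 0.98 (SE 0.25, edgeR adjusted p = 0.0397), and the call held in 2 of 10 fits (highest adjusted p = 0.128, without SC control replicate 3).

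The cytosolic aminotransferase *got1* differed by 1.31 (SE 0.32, edgeR adjusted p = 0.0318), with overlapping fish at 67.2 to 228 CPM in NBH and 38.2 to 123 in SC. *fah*, the last enzyme of tyrosine breakdown, was at 1548 to 1967 CPM in NBH and 957 to 1338 in SC, a difference of 0.64 (SE 0.17, edgeR adjusted p = 0.0464). The calls of *got1* and *fah* held in 3 and 2 of 10 fits, with their highest adjusted p (0.0939 and 0.119) without NBH control replicate 4 and SC control replicate 5. *sardh*, which oxidizes sarcosine to glycine, was at 7.43 to 19.1 CPM in NBH and 2.89 to 6.98 in SC, a difference of 1.30 (SE 0.27, edgeR adjusted p = 0.00971), and its call held in all 10 fits.

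*paics*, which carries out consecutive steps of the purine pathway, was at 124, 115, 204, 133 and 114 CPM in NBH and at 45.2, 72.0, 64.1, 60.4 and 53.1 in SC. Every NBH fish was above every SC fish, and the difference of 1.22 (SE 0.24, edgeR adjusted p = 0.0056) held in all 10 fits. *umps*, which makes the pyrimidine nucleotide UMP, was at 9.62 to 19.8 CPM in NBH and 3.21 to 5.98 in SC, a difference of 1.54 (SE 0.36, edgeR adjusted p = 0.0248; called in 6 of 10 fits, highest adjusted p = 0.0660 without SC control replicate 5). *oaz1b*, the antizyme that restrains polyamine synthesis, showed little spread, at 173 to 205 CPM in NBH and 86.0 to 108 in SC, a difference of 1.02 (SE 0.16, edgeR adjusted p = 0.0007) called in all 10 fits. *paics*, *umps* and *oaz1b* were also picked after their values were seen.

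Of 44 tested plasma protein genes of the liver, 2 were called, against 0.882% of all tested genes higher in NBH, and both are clotting factors higher in NBH. *f5*, coagulation factor V, stood at 361, 349, 297, 349 and 327 CPM in NBH and at 238, 161, 200.1, 248 and 224 in SC. The NBH values were all above the SC values, and the difference of 0.65 (SE 0.13, edgeR adjusted p = 0.00866) was small but exceeded the spread between fish. *f9b*, coagulation factor IX, stood at 364 to 546 CPM in NBH and 169 to 287 in SC, a difference of 1.07 (SE 0.19, edgeR adjusted p = 0.00185). Both calls held in all 10 fits. The median difference of the 44 genes was 0.16, with 34 above 0 and 10 below, against 0.00 over all genes. The sum of the hepatocyte list was also higher in every NBH fish, though not once *fabp10a* was left out. Its part in the differences of liver-made transcripts was not tested.

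Of 40 transporters tested, 1 was called, a share near the 1.62% of all tested genes, and it was *abcb11b*, the bile salt export pump. It stood at 165, 155, 166, 161 and 132 CPM in NBH and at 65.7, 97.7, 77.5, 90.7 and 86.4 in SC. The groups did not overlap, and the difference of 0.90 (SE 0.19, edgeR adjusted p = 0.0135) held in all 10 fits. *ezra*, which codes for ezrin, a linker of membrane proteins to the actin cortex, was at 229 to 279 CPM in NBH and 109 to 159 in SC, a difference of 1.05 (SE 0.16, edgeR adjusted p = 0.000408) that also held in all 10 fits, and *pcyt1aa*, the regulated enzyme of phosphatidylcholine synthesis, differed by 0.73 (SE 0.15, edgeR adjusted p = 0.00971). The latter pair was chosen after the values were seen.

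Among named genes of at least 10 CPM without overlap, the 10 with the largest fold change toward NBH included receptors, mitochondrial proteins and regulators. *eif3ea*, a subunit of the translation initiation factor eIF3, is described with the genes that were near 0 in one population. *tmem70*, an assembly factor of mitochondrial ATP synthase on an unplaced scaffold, was at 122, 136, 158, 119.9 and 195 CPM in NBH and at 22.3, 27, 30.4, 19.3 and 22.6 in SC. The difference of 2.59 (SE 0.38, edgeR adjusted p = 0.000314) was present in every pair of fish. *miga2*, a protein of mitochondrial fusion, was at 26.5 to 48.5 CPM in NBH and 6.37 to 17.7 in SC (1.88, SE 0.36, edgeR adjusted p = 0.00443). *osmr* (chromosome 12, 13060083 to 13076454), the receptor for oncostatin M, a cytokine of the acute-phase response in mammals, was at 30.8, 24.8, 28.3, 43.6 and 29.98 CPM in NBH and at 7.43, 4.63, 5.89, 4.31 and 2.6 in SC. Its log2 difference was 2.64 (SE 0.45, edgeR adjusted p = 0.00145).

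*layna* (chromosome 11, 21747481 to 21823474), coding for layilin, a receptor of hyaluronan, varied widely among NBH fish, at 136, 10.9, 69.0, 52.4 and 34.4 CPM, and was at 1.25 to 6.65 in SC (3.68, SE 0.75, edgeR adjusted p = 0.00971). *nuak1b*, a kinase related to AMPK, was at 11.5 to 24 CPM in NBH and 0.918 to 8.67 in SC (2.50, SE 0.45, edgeR adjusted p = 0.00305). *tbx2b*, a T-box transcription factor, was at 6.57 to 14.5 CPM in NBH and 1.16 to 2.89 in SC (2.44, SE 0.53, edgeR adjusted p = 0.0135), and *gnsb*, a lysosomal sulfatase, at 39.9 to 74.3 and 8.42 to 22.8 (1.68, SE 0.36, edgeR adjusted p = 0.0135). The calls of *tmem70*, *miga2*, *osmr*, *layna*, *nuak1b*, *tbx2b* and *gnsb* each held in all 10 fits. *casp10*, an initiator caspase of apoptosis, and *bace2*, a membrane protease, completed these 10 genes, at 23.6 to 68.2 against 1.99 to 3.63 CPM and at 21.7 to 47.3 against 0.612 to 12.5. Their calls held in 1 and 2 of 10 fits (highest edgeR adjusted p = 0.0946 and 0.0890, both without SC control replicate 3). Of 20 tested genes of apoptosis *casp10* was the only one called, where 1.62% of all tested genes were.

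The next 3 genes were set side by side after their values were seen, and no list of their pathway was examined. *tsc2* is 1 of the 10 genes of lowest adjusted p, while *slc38a9* and *rps6kb1b* were picked singly. *tsc2*, whose product inhibits the growth regulator mTORC1, was at 71.9, 47.3, 79.3, 74.4 and 35.4 CPM in NBH and at 17.7, 22.3, 20.8, 20.9 and 18.5 in SC. Its difference was 1.62 (SE 0.24, edgeR adjusted p = 0.000364) and held in all 10 fits. *slc38a9*, the lysosomal amino acid sensor that activates mTORC1, was lower in NBH (7.81 to 12.7 CPM) than in SC (13.1 to 40.4 CPM), by -1.20 (SE 0.27, edgeR adjusted p = 0.0192; called in 7 of 10 fits, highest adjusted p = 0.0762 without SC control replicate 5). *rps6kb1b*, an S6 kinase downstream of mTORC1, was at 18.1 to 27.1 CPM in NBH and 31.1 to 47.5 in SC, a difference of -0.84 (SE 0.22, edgeR adjusted p = 0.0475) that held in 1 of 10 fits (highest adjusted p = 0.118, without NBH control replicate 4).

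Among the named genes of at least 10 CPM higher in SC without overlap, *lama2* and *slc6a13* were almost silent in NBH control fish. *slc6a13*, a transporter of GABA and taurine on an unplaced scaffold, stood at 0.350, 0.543, 1.63, 0.160 and 0.468 CPM in NBH and at 13.8, 12, 14.8, 14.2 and 12.1 in SC. The SC fish were close to each other, and the difference was -4.43 (SE 0.68, edgeR adjusted p = 0.000447), called in all 10 fits. *lama2*, a laminin chain of basement membranes, stood at 0 to 0.583 CPM in NBH and 11.4 to 18.3 in SC (-5.82, SE 1.36, edgeR adjusted p = 0.0227; called in 6 of 10 fits, highest adjusted p = 0.0621 without NBH control replicate 2). Under mild and severe hypoxia the differences were -1.71 and -1.39 for *slc6a13* and -4.19 and -2.34 for *lama2*. None of these was called (edgeR adjusted p = 0.0565 to 0.142), nor was a change from control (edgeR interaction tests, adjusted p = 0.186 to 0.901). Each gene reached 6.12 CPM in an NBH severe fish. *aqp1* (chromosome 6, 21264341 to 21266474), a water channel, was at 11.4, 10.5, 15.3, 9.62 and 3.83 CPM in NBH and at 51.0, 44.8, 42.8, 67.5 and 38.2 in SC. Its difference of -2.28 (SE 0.41, edgeR adjusted p = 0.00244) held in all 10 fits.

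*fkbp5* (chromosome 20, 20574734 to 20592975), a cochaperone of the glucocorticoid receptor and itself a glucocorticoid-induced gene in mammals, was at 43.5, 25.9, 27.1, 32.2 and 59.5 CPM in NBH control fish. In SC control fish it was at 181, 182, 266, 153 and 151 CPM, each of them above every NBH fish. The difference was -2.31 (SE 0.46, edgeR adjusted p = 0.00796) and held in all 10 fits. *ccng2*, an atypical cyclin that slows the cell cycle, followed the same order, at 9.42 to 12.3 CPM in NBH and 23.4 to 69.3 in SC (-2.0, SE 0.41, edgeR adjusted p = 0.00971, called in all 10 fits). Its relative *ccng1*, a p53 target in mammals, had the opposite order, at 305 to 472 CPM in NBH and 141 to 260.4 in SC (0.95, SE 0.24, edgeR adjusted p = 0.0345; called in 3 of 10 fits, highest adjusted p = 0.0980 without SC control replicate 1). Both cyclins were chosen after their values were seen.

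*pfkfb4b*, which sets the level of the glycolytic activator fructose 2,6-bisphosphate, was at 4.66, 7.25, 7.86, 10.3 and 21.9 CPM in NBH and at 22.6, 163, 75.4, 31.9 and 32.7 in SC. The groups touched closely at their edges, and the difference of -2.63 (SE 0.55, edgeR adjusted p = 0.0115) was lost only without SC control replicate 2 (adjusted p = 0.0529). It was 1 of 2 called among 26 tested genes of glycolysis and gluconeogenesis, where 1.62% of all tested genes were called. The other, *tpi1b*, triosephosphate isomerase, was higher in NBH, at 273 to 579 CPM against 196 to 269 (0.96, SE 0.20, edgeR adjusted p = 0.0121, called in all 10 fits).

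*toe1*, a nuclease that trims small nuclear RNAs, was steady in NBH at 2.88 to 3.83 CPM and fell into separate levels in SC, with 21.6, 30.6 and 32.6 CPM in replicates 1, 3 and 5 and 4.63 and 4.22 in replicates 2 and 4 (-2.45, SE 0.44, edgeR adjusted p = 0.0029, called in all 10 fits). The remaining 4 of the 10 genes were *th2*, a tyrosine hydroxylase, si:ch73-141c7.1, *coq8b*, which supports coenzyme Q synthesis, and *tmbim1a*. Their differences ran from -2.48 to -2.05, and their calls held in 3 to 5 of 10 fits. Their highest adjusted p values by edgeR were 0.0656, 0.107 and 0.0992 without NBH control replicate 2 for *th2*, si:ch73-141c7.1 and *tmbim1a*, and 0.0741 without NBH control replicate 3 for *coq8b*.

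Spread within a population was as marked in some NBH genes. *lrrc23*, a leucine-rich repeat protein of cilia, was at 54.7, 80.4, 145 and 108 CPM in NBH replicates 1, 2, 4 and 5, but at 3.26 in replicate 3, below the SC fish (5.98 to 9.94). *eif2b1*, a subunit of the exchange factor for eIF2, was at 31.7, 26.8 and 29.3 CPM in NBH replicates 2, 3 and 5 and at 2.33 and 3.69 in replicates 1 and 4, which is the level of SC (1.68 to 4.22). The fitted differences were 3.44 for *lrrc23* (SE 0.70, edgeR adjusted p = 0.00971, called in all 10 fits) and 2.70 for *eif2b1* (SE 0.64, edgeR adjusted p = 0.0246, called in 3 of 10 fits, highest adjusted p = 0.0721 without NBH control replicate 2). They describe a mean over fish of unlike levels, and both genes were chosen after their values were seen.

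Of 36 tested genes of sterol and fatty acid synthesis, 27 were lower in NBH and 9 higher, with a median difference of -0.64, and 2 were called, both lower in NBH, where 0.742% of all tested genes were called in that direction. *fads2*, the desaturase of long-chain polyunsaturated fatty acids, was at 2.57, 1.27, 1.63, 5.61 and 4.37 CPM in NBH and at 59.6, 5.21, 24.8, 9.47 and 9.79 in SC. A single NBH fish reached past the lowest SC fish, and the difference was -2.80 (SE 0.54, edgeR adjusted p = 0.0056, called in all 10 fits). *hsd17b7*, an enzyme of cholesterol synthesis, was at 0.233 to 1.63 CPM in NBH and 0.603 to 4.82 in SC (-2.22, SE 0.58, edgeR adjusted p = 0.0453; called in 3 of 10 fits, highest adjusted p = 0.137 without SC control replicate 3).

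The rate-limiting enzyme of cholesterol synthesis, *hmgcra*, had means of 253 CPM in NBH and 674 in SC and did not pass the test (-1.41, SE 0.92, edgeR adjusted p = 0.54), and *fasn*, fatty acid synthase, had means of 193 and 166 CPM (0.22, SE 0.35, edgeR adjusted p = 0.866). The median difference of 48 tested genes of fatty acid oxidation and peroxisomes was -0.05. Of these 48 genes 2 were called, both lower in NBH, where 0.742% of all tested genes were called in that direction. One of the 2 was *acaa2*, the mitochondrial thiolase, at 53.5, 40.8, 92.7, 38.3 and 63.2 CPM in NBH and at 253, 73.8, 173, 257 and 162 in SC (-1.67, SE 0.35, edgeR adjusted p = 0.0121, called in all 10 fits).

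Of 20 tested genes of the HIF pathway, 1 was called, where 1.62% of all tested genes were, and it was *hif1al*, by its symbol HIF1 alpha-like. The study reports that HIF3 alpha rose with hypoxia only in NBH fish and that HIF1 alpha did not change. Here *hif1al* rose in NBH by 1.77 under mild and 1.68 under severe hypoxia (edgeR adjusted p = 0.000885 and 0.00178) and was not called in SC. It may therefore be the gene that the study names HIF3 alpha. It was at 26.4, 24.3, 19.6, 28.8 and 37.6 CPM in NBH and at 67.0, 52.0, 96.0, 69.2 and 76.3 in SC. The groups did not overlap (-1.40, SE 0.34, edgeR adjusted p = 0.0274), and the call held in 4 of 10 fits (highest adjusted p = 0.0823, without SC control replicate 3). The other alpha subunits *hif1aa*, *epas1a* and *epas1b*, the asparagine hydroxylase *hif1an*, and the prolyl hydroxylases *egln1a*, *egln2* and *egln3*, which mark HIF for degradation when oxygen is present, were not called, with differences from -0.63 to 0.79.

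*ghra*, a growth hormone receptor, was at 2.89 to 5.25 CPM in NBH and 7.43 to 25.8 in SC (-1.78, SE 0.47, edgeR adjusted p = 0.0464; called in 1 of 10 fits, highest adjusted p = 0.135 without SC control replicate 4), the only call among 14 genes of growth hormone and IGF signaling, where 0.742% of all tested genes were called higher in SC. *gbp* was at 13.5 to 19.9 CPM in NBH and 24.9 to 32.0 in SC (-0.81, SE 0.20, edgeR adjusted p = 0.0299). It was called in 5 of 10 fits, with its highest adjusted p (0.0859) without NBH control replicate 2. It was the only call among 24 genes listed as interferon and antiviral, and the median of that list was 0.47. Its place in the list rests on its symbol alone, and its product was not checked, so it may not be an interferon gene. Nothing is read from a single call in either list. *ccn1*, a matrix-associated signaling protein chosen after its values were seen, was at 2.08 to 4.22 CPM in NBH and 6.12 to 14.9 in SC (-2.04, SE 0.41, edgeR adjusted p = 0.00971, called in all 10 fits).

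Several longer lists had calls near the background of 1.62% of all tested genes. Of 78 cytosolic ribosomal protein genes 1 was called (*rps28*, at 2.40 to 3.98 CPM in NBH and 5.45 to 7.40 in SC, a call lost in each of the 10 fits), of 45 proteasome genes 1 (*psmd10*, called in 3 of 10 fits), and of 81 genes of oxidative phosphorylation and 74 chaperones none. The median differences of these 4 groups were 0.00, -0.05, -0.12 and 0.03. Also without a call by edgeR were 31 clock genes, 31 antioxidant and glutathione genes, 25 genes of heme and iron and 18 collagens (median -0.49, with 15 below 0). The same held for 17 genes listed for DNA methylation, 19 immediate-early genes, 10 genes of antigen presentation and 20 genes of the hepatocyte list. At an unadjusted p under 0.05, 1912 of all tested genes passed.

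The 10 genes of lowest adjusted p included several differences with little spread. LOC118556187 (chromosome 7, 36605933 to 36626852) stood at 3.03, 1.81, 4.89, 2.72 and 6.79 CPM in NBH and at 33.3, 33.4, 40.9, 42.6 and 34.3 in SC. Its difference of -3.22 (SE 0.28, edgeR adjusted p = 4.86e-08) had the lowest adjusted p of all genes. *dhx8* (chromosome 10, 17651864 to 17667156), an RNA helicase that releases spliced mRNA, stood at 39.3, 40.9, 54.6, 43.1 and 41.1 CPM in NBH and at 12.7, 14.7, 18.9, 17.8 and 15.8 in SC (1.45, SE 0.14, edgeR adjusted p = 4.77e-07). It was the only one called of 38 DDX and DHX helicases, where 1.62% of all tested genes were called, and the median of these helicases was -0.09.

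*polq* (chromosome 5, 12430723 to 12461540), the DNA polymerase of end joining, was low in both populations, with 22, 9, 18, 22 and 20 counts in NBH and 3, 2, 1, 3 and 0 in SC (edgeR adjusted p = 5.34e-06). LOC105938180 was higher in NBH, at 11.7 to 57.4 CPM against 1.43 to 2.41 (4.16, SE 0.51, edgeR adjusted p = 1.67e-05). LOC105939781 was higher in SC, at 52.6 to 122 CPM against 1.48 to 12.9 (-3.87, SE 0.56, edgeR adjusted p = 0.000248), and the long non-coding LOC118566349 at 2.41 to 5.94 CPM against 0.156 to 0.543 (-3.58, SE 0.52, edgeR adjusted p = 0.000277). All of these calls held in the 10 fits without 1 fish.

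In 9 genes every control fish of one population had at most 3 counts and every control fish of the other at least 10, a rule set after the data had been seen. In 5 of them NBH was the low population. All 9 were called, which adds no evidence, since the rule used the same counts. LOC118562401 (chromosome 1, 11620121 to 11622235) had 0 counts in each of the 5 NBH control fish and 172, 99, 118, 446 and 273 counts in SC. With 3 counts set per NBH library, SC was at least 55.7-fold higher (edgeR adjusted p = 5.34e-06). The same gene had at most 1 count in each of the 10 NBH hypoxia fish and 59 to 409 counts in each of the 10 SC hypoxia fish.

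*eif3ea* (chromosome 3, 9522132 to 9524646) had 111, 79, 58, 54 and 92 counts in NBH and 0 in each SC fish, at least 34.0-fold higher in NBH with 3 counts set per SC library (edgeR adjusted p = 0.0132). Its paralog *eif3eb* had 0 counts in 9 of the 10 control fish and 2 in the other. A further copy under a LOC name was not looked for, so a lack of this subunit in SC livers is not shown. In the hypoxia fish *eif3ea* had at most 2 counts in SC, and 7 of 10 NBH fish had at least 10. The lowest NBH hypoxia fish had 0. *adam28*, a membrane metalloprotease, had 15 to 31 counts in NBH and 2 or 3 in SC, and at most 2 in each of the 10 SC hypoxia fish.

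The other 6 genes of this kind were not near 0 in every hypoxia fish of the low population. *syt12*, a synaptotagmin, had 0 to 2 counts in NBH and 13 to 27 in SC. LOC105916471, without a named product in the files, had 11 to 128 counts in NBH and 0 or 1 in SC (edgeR adjusted p = 0.000199). LOC105931991 had 0, 0, 0, 2 and 0 counts in NBH control fish and 93 to 271 in SC, yet 1 NBH hypoxia fish had 852.

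The differences were next looked for in the hypoxia fish, which share no fish with the control groups. They may be siblings of the control fish, so a difference between families would recur in them. It cannot be told apart here from a difference between populations. Of the 221 genes, 186 (84.2%) had the same direction between populations under mild hypoxia and 201 (91%) under severe hypoxia, where 58.6% and 60.5% of all tested genes kept their direction. Both levels agreed in direction with control for 172 genes, and for 6 both were opposite. Agreement at both levels was not counted over all tested genes, so nothing is read from these 2 counts. Under mild hypoxia 47 were called again in the same direction, which is 21.3% of the control calls and 27.6% of the 170 mild calls (1.25% of the genes tested). Under severe hypoxia 94 were, which is 42.5% of the control calls and 9.44% of the 996 severe calls (7.32% of the genes tested), and with all 30 fish none was called in the opposite direction at either level. Without NBH severe replicate 5, 197 (89.1%) kept their direction under severe hypoxia and 89 were called again (6.19% of the genes tested were called in that fit), while under mild hypoxia 56 were called again (1.93% of the genes tested). In that fit *tbx2b* was called in the opposite direction, at -1.98 (edgeR adjusted p = 0.0105) against -1.35 with that fish (edgeR adjusted p = 0.0754).

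**Figure D4:**
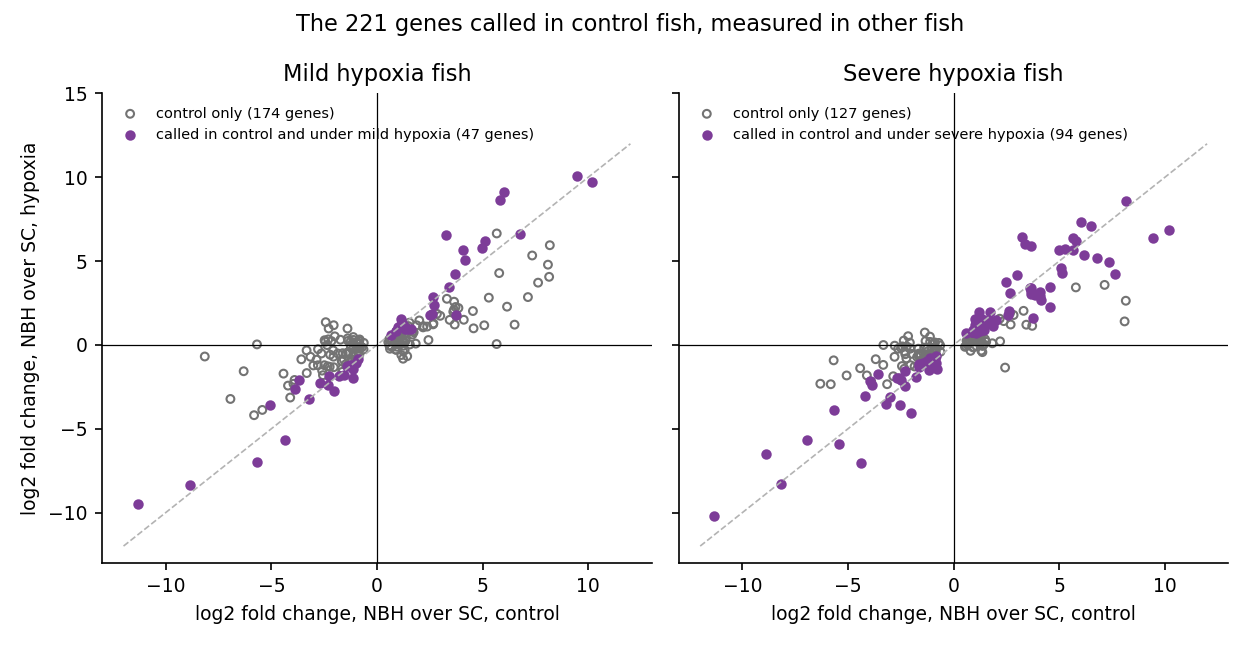
Difference between populations (log2 fold change, NBH over SC) under mild hypoxia (left) and severe hypoxia (right) against that in control fish, for the 221 genes called in control. Filled points are the 47 and 94 genes also called in the hypoxia fish, open points the others, the dashed line marks equal values, and 186 and 201 points lie in the quadrants of equal sign.

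Called at all 3 oxygen levels in one direction were 37 of the 13609 tested genes, 22 higher in NBH and 15 higher in SC. Among them *osmr* differed by 2.64, 2.85 and 2.04 in control, mild and severe hypoxia fish, *tmem70* by 2.59, 1.85 and 1.81, *tsc2* by 1.62, 0.95 and 1.37, *dhx8* by 1.45, 0.94 and 0.92, and *paics* by 1.22, 1.24 and 0.83. Higher in SC at every level were *aqp1* (-2.28, -1.86 and -1.56), *setd4*, a methyltransferase chosen after its values were seen (-2.31, -2.39 and -2.44), *ghra* (-1.78, -1.88 and -1.89) and *ccn1* (-2.04, -2.74 and -4.05). The shared direction in 3 separate sets of 5 and 5 fish follows from how these genes were selected and is no further evidence. Without NBH severe replicate 5 each of these 9 genes was again called under severe hypoxia by edgeR, and *tmem70* differed by 1.40 there.

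For other genes the difference was called in control fish and not in the hypoxia fish. *fkbp5* differed by -2.31 in control, 0.33 in mild hypoxia (SE 0.44, edgeR adjusted p = 0.804) and -0.41 in severe hypoxia (SE 0.43, edgeR adjusted p = 0.611). *ccng2* differed by -2.0, 0.51 and -0.53, *coq8b* by -2.05, 1.18 and -0.21, *hif1al* by -1.40, 0.98 and -0.16, and *pfkfb4b* by -2.63, -0.51 and -0.23. Of these 5 genes none was called in hypoxia, and none had an adjusted p under 0.05 in edgeR's test of the change in difference, where the values were 0.162 to 0.413 for mild and 0.219 to 0.329 for severe hypoxia. Among genes higher in NBH in control, *got1* had the opposite direction under mild (-0.32) and severe hypoxia (-0.34). The differences were 0.05 and 0.54 for *got2b*, 0.18 and 0.19 for *abcb11b*, and 0.33 and 0.11 for *f5*. None of *got1*, *got2b*, *abcb11b* and *f5* was called in hypoxia or in edgeR's test of the change (adjusted p = 0.166 to 0.707). Over all genes that test called 0 genes for mild hypoxia (1046 at an unadjusted p under 0.05, and 36 by DESeq2) and 1 for severe hypoxia, LOC105934894 (1491 at an unadjusted p under 0.05, and 69 by DESeq2). Without NBH severe replicate 5 it called LOC105916364 for mild hypoxia, and for severe hypoxia the same single gene and *tbx2b* (edgeR adjusted p = 0.00379), which was higher in NBH in control and lower in severe hypoxia. The severe difference of *fkbp5* was -0.79 in that fit and again not called (edgeR adjusted p = 0.309).

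In 14 genes all 15 fish of one population were above all 15 of the other across the oxygen levels, 0.12% of the 11640 genes with a mean of at least 1 CPM in the higher population. NBH was above in 7 (LOC118564141, *polq*, *osmr*, *dhx8*, LOC105916471, *rnf150a* and LOC118559030) and SC in 7 (LOC118562401, LOC118556187, LOC118564529, LOC118563381, LOC118559394, LOC118563106 and *snrpd3l*). In the control comparison 13 of them were called, all but LOC118563106 (-2.0, SE 0.58, edgeR adjusted p = 0.0722). Separation of the control fish is part of the rule, so these calls are no separate evidence.

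*osmr* ranged from 10.4 to 47.0 CPM over 15 NBH fish and from 1.29 to 9.21 over 15 SC fish, and *dhx8* from 24.5 to 54.6 and from 12.7 to 21.9. *rnf150a*, a RING-finger gene, ranged from 4.84 to 10.9 CPM in NBH and 1.40 to 4.47 in SC. *snrpd3l*, named for the Sm protein D3 of the spliceosome, ranged from 0 to 1.51 CPM in NBH and 1.51 to 5.88 in SC, so that its separation was narrow. Its control difference had a size of 3.95 (edgeR adjusted p = 0.0106), or 8.44 without NBH control replicate 3. Every other NBH control fish had 0 counts, so the size of 8.44 depends on the fit's prior count.

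LOC118564141 (chromosome 9, 10657243 to 10672339) was abundant in every NBH fish, at 245, 188, 194, 157 and 341 CPM in control and 157 to 341 over all 15. In SC control fish it was at 5.94, 2.41, 4.37, 103 and 1.99 CPM, with replicate 4 far above the others. The control difference was 3.25 (SE 0.70, edgeR adjusted p = 0.0129), or 5.91 without SC control replicate 4, against 6.58 and 6.45 in the mild and severe hypoxia fish. LOC118564529 (chromosome 11, 14618582 to 14660964) was the mirror case, at 126 to 210 CPM in SC and 0 to 0.362 in NBH control fish except for replicate 4, at 16 CPM. Its difference was -5.67, with a size of 10.28 without that fish (SE with all fish 1.32, edgeR adjusted p = 0.0223; called in 7 of 10 fits, highest adjusted p = 0.0687 without NBH control replicate 2).

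**Figure D5:**
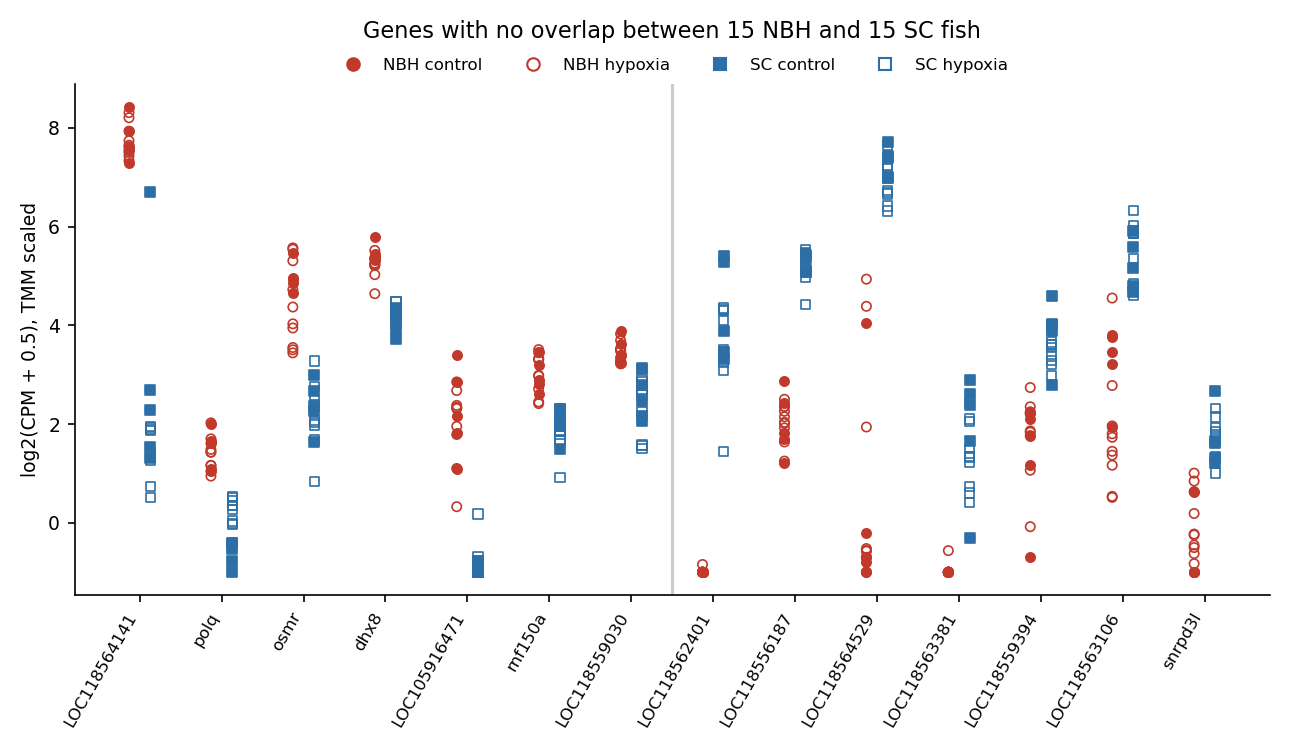
Levels (log2 of CPM plus 0.5) of the 14 genes with no overlap between 15 NBH fish (red circles) and 15 SC fish (blue squares), with control fish filled and hypoxia fish open. The 7 genes on the left are higher in NBH and the 7 on the right in SC, and the SC control fish at 103 CPM stands out in LOC118564141.

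The called genes were spread over the genome. On the 24 chromosomes of the assembly the share of tested genes that were called ran from 0.813% on chromosome 24 to 2.69% on chromosome 6, and none of 13 mitochondrial genes was called. In 12 cases the next tested gene along the chromosome after a called gene was also called, and in 10 of these both differed in the same direction. Over all tested genes 1.62% were called. How often all neighbouring tested genes share a direction was not counted, and nothing is read from the number of these pairs. LOC118562401 lies inside the span of its neighbour LOC105929111 (chromosome 1, 11601648 to 11623323), which was also lower in NBH (0 to 0.297 CPM against 0.772 to 5.60), so the reads of these genes may not be fully told apart. On chromosome 9 LOC118564141, LOC118564136 and *b3galt2*, a galactosyltransferase, lie in a row and were all higher in NBH, by 3.25, 1.11 and 0.92, and on chromosome 22 *got1* was followed by LOC118557060, by 1.31 and 1.33.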

How the data were processed

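The authors trimmed single-end 50-base reads of stranded libraries with Trimmomatic, mapped them with STAR to the killifish genome (MU-UCD_Fhet_4.1) and counted reads per gene with HTSeq-count. The strand setting of the counting is not given in the sources used here, so antisense and overlapping genes may share reads. The deposited values are raw counts per gene, 1 file per fish. Coordinates come from the RefSeq gene table of that assembly, which held 32227 of the gene identifiers. The 23 bisulfite samples were not used here.

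Groups followed the labels. After filterByExpr with the 6 groups and TMM scaling, edgeR 4.0.16 (R 4.3.3, limma 3.58.1, legacy quasi-likelihood) was fitted to 30 fish with 6 group means. Contrasts were tested at a Benjamini-Hochberg adjusted p under 0.05 over 13609 genes. Standard errors were derived from the F statistic of each contrast. The study left out 1 NBH severe hypoxia fish without giving its number. All 30 were kept, and the alternative with 29 fish drops NBH severe replicate 5, the library of lowest depth. Principal coordinates used log2 CPM with a prior count of 2. Tables were handled in Python 3.11.15 with pandas 2.3.3, and the fit was tested on simulated counts.

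Named genes were the AHR pathway list, the 10 genes of largest fold change in each direction (with a symbol, a mean of at least 10 CPM in the higher group and no overlap), the 10 of lowest adjusted p, genes separated in 15 against 15 fish, called members of 33 gene lists and, where the text says so, genes chosen after their values were seen. Some genes that met these rules are not reported here. The comparison, its members and the lists were chosen with earlier results of these data known. Alternatives were other normalizations, filters, tools (DESeq2 1.42.0), depth corrections, sample sets, a replicate block and leaving out each control fish. Replicate pairs within groups differed by more than sampling noise (chi-square per gene 26.6 to 92.3 over 20 pairs).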

Additional observations from a re-analysis of the deposited data

Results flagged for a closer look

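A single fish stood apart from the other 4 of its group in 13 of 146 groups of 5 fish examined, by Dixon's criterion. That criterion flags about 5% of groups by chance if values are normally distributed. CPM values may be skewed, and in each flagged group the fish apart was the highest. The genes were also chosen on these same values, so 13 groups are not read as an excess over chance. The SC control fish was replicate 1 for *nuak1b* (8.67 CPM, next fish 2.23) and LOC118566349 (5.94, next 3.36), replicate 2 for *snrpd3l* (5.88, next 2.68) and *ezra* (159, next 119.6), replicate 3 for *fkbp5* (266, next 182), and replicate 4 for LOC118564141 (103, next 5.94) and LOC105929111 (5.60, next 2.14). The NBH control fish was replicate 3 for *slc6a13* (1.63 CPM, next fish 0.543), *dhx8* (54.6, next 43.1), *snrpd3l* (1.04, next 0), *hsd17b7* (1.63, next 0.481) and *paics* (204, next 133). It was replicate 4 for LOC118564529 (16.03 CPM, next fish 0.362).

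With all 30 fish DESeq2 called a change with oxygen in the difference between populations for 36 genes (mild hypoxia) and 69 genes (severe hypoxia). edgeR's interaction test called 1 gene, LOC105934894. LOC105934894 (chromosome 7) was not called in control (-0.67, edgeR adjusted p = 0.135) or mild hypoxia fish (0.63, edgeR adjusted p = 0.191), and was higher in NBH in severe hypoxia fish (1.45, edgeR adjusted p = 0.000337). In control it stood at 2.10 to 4.53 CPM in NBH and 3.67 to 6.56 in SC. The change from control to severe hypoxia was 2.13 (SE 0.32, adjusted p = 0.00394 by edgeR's interaction test), and 2.05 without NBH severe replicate 5 (edgeR adjusted p = 0.00379). Without that fish the change was also called for *tbx2b* from control to severe hypoxia (-4.41, edgeR adjusted p = 0.00379, against 0.0725 with it) and for LOC105916364 from control to mild hypoxia (4.47, edgeR adjusted p = 0.0429).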

How the results depend on the processing

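Against 221 called genes, 359 were called without TMM scaling (93 higher in NBH, 266 in SC, 188 shared), 440 by DESeq2 (222 and 218, 219 shared), 132 on counts thinned to the smallest library and 23 when tested against a log2 difference of 1. Leaving out 1 control fish gave 108 to 220. The other settings stayed within 1.5 times in number: 299 without NBH severe replicate 5 (221 shared), 304 with the newer quasi-likelihood method (219 shared), 162 and 181 with other filters (158 and 176 shared), 291 with the 10 control fish alone (160 shared) and 191 with total count as a covariate (177 shared). The set of genes thus changed more than the total with the 10 control fish alone. The replicate numbers did not pair the fish (correlations of same-numbered fish -0.095 to 0.072, and 1 of 5 numbers correlated best with itself), and with a replicate block 216 genes were called, 193 of them shared. The share of called genes with one sign at all oxygen levels was 77.8%, and 75.2 to 88.3% over the alternatives, while that share over all tested genes was not counted. Genes separated in 15 against 15 fish numbered 10 to 17. Of 73 named called genes none reversed under an alternative, 64 stayed called without TMM scaling, and 43 in every fit without 1 fish. *CYP1A* kept its direction throughout. Low genes are limited by depth, as *arnt2* rested on 3 to 20 counts per fish.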
